A study of Mus musculus with 8 samples.

Results

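Genes of mitosis were followed in haematopoietic stem and progenitor cells sorted by a GFP reporter of Hdc, the gene for histidine decarboxylase, which forms histamine from histidine. The set holds 40 genes of 23284 in the count table, found by symbol: mitotic cyclins and kinases, the spindle checkpoint, the anaphase-promoting complex and its targets, kinetochore, spindle, cytokinesis and condensin genes. All 40 were present and all 40 passed the filter on low counts. The list leaves out the kinesin family by its name, but 1 member, Cenpe, encodes a kinesin motor of the kinetochore. RNA came from bone marrow of Hdc-GFP mice on a C57BL/6 background. The LSK fraction (lineage-negative cells that carry Sca-1 and c-Kit) was sorted into Hdc-GFPhi cells (4 libraries) and Hdc-GFPlo cells (4 libraries), 2000 cells per library. Both fractions come from reporter mice, and no library is from mice without the reporter. The labels do not give the animals' age or sex, whether animals were pooled, or which parts of the Hdc locus drive GFP. One Hdc-GFPhi library, replicate 4, is described in 1 label as GFP+ and not as GFPhi. The mice of Hdc-GFPhi replicate 2 are labelled as Hdc-GFPhi mice. Both libraries were kept in the group of their title.

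Cells enter mitosis when Cdk1, bound to cyclin A2 or cyclin B and activated by Cdc25 phosphatases, phosphorylates its targets. Polo and Aurora kinases build the spindle, the checkpoint kinases and Mad2 hold back the anaphase-promoting complex until kinetochores are attached, and that complex then marks securin and cyclin B for destruction. Transcripts of these genes accumulate in G2 and mitosis and are low in resting cells, so in bulk RNA their level depends on how many cells are dividing. Among stem and progenitor cells, long-term stem cells divide rarely and multipotent progenitors more often. In these bulk samples, fewer dividing cells and less mitotic RNA per dividing cell cannot be told apart.

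Many G2 and mitosis genes are silenced in resting cells by the DREAM complex, which binds the CHR element, and are driven by NF-Y, which binds CCAAT boxes. Promoter windows of 300 bases (250 before the start and 50 after) were listed by RefSeq on build GRCm38.p6 for 34 of the 40 genes, all but Ccna2, Cdc25c, Aurkb, Incenp, Tpx2 and Smc4. A CHR element, searched as TTTGAA or TTCGAA on both strands, was in 25 of the 34 (73.5%), against 13.9% of 9421 tested genes with a listed window and 19.4% of all 27025 genes listed. At least 1 CCAAT box, searched as CCAAT on both strands, was in 25 of the 34 (73.5%), against 38.8% and 37.9%. Both motifs were found in 23 of the 34 (67.6%), against 5.99% and 7.70%, and at least 2 CCAAT boxes in 16 (47.1%), against 14.9% and 12.2%. The 150 bases before the start are shown for 4 members that hold both and for Pttg1, which holds neither in its window. Capitals mark CHR elements and CCAAT boxes or their reverse complements.
Cdk1 (chr10:69352913-69353062, minus strand): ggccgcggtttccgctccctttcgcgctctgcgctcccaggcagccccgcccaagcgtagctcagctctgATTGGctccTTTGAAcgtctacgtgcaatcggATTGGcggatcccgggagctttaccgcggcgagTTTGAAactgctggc
Ube2c (chr2:164769779-164769928, plus strand): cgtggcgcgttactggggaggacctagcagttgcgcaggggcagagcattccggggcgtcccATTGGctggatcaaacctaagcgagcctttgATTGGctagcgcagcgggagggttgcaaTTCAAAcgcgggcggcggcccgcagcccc
Cdc20 (chr4:118437344-118437493, minus strand): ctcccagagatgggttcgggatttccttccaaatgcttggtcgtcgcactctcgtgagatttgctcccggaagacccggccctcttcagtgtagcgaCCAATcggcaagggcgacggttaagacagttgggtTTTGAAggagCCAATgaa
Espl1 (chr15:102296143-102296292, plus strand): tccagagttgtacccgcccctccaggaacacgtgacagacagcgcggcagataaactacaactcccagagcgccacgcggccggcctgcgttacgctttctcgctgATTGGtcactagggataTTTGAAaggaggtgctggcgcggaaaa
Pttg1 (chr11:43425982-43426131, minus strand): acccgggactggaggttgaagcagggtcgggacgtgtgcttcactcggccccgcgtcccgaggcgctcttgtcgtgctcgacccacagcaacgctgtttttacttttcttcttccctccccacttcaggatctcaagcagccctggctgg
In Cdc20 the CHR element began 18 bases before the start, between CCAAT boxes at 53 and 8 bases, and in Espl1 it began at 27 bases, after a CCAAT box at 44. These are matches of letters and not measured binding sites.

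The libraries had 16726179 to 23051277 counts, and each member had at least 303 counts in every library. For the mitosis genes, Hdc-GFPhi replicate 3 stood high and Hdc-GFPlo replicate 2 low, and Hdc-GFPlo replicate 3 was highest or lowest of the 8 libraries for many genes of any kind. For the genes given library by library, the log2 fold change with 1 library left out is added where it moved by over 1.5 times. For Ccnb1 the range over all alternatives is given instead.

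No mitosis gene differed between Hdc-GFPhi and Hdc-GFPlo cells past the test's threshold. With edgeR's quasi-likelihood test over 13300 genes and an adjusted p of 0.05, 0 of 40 members were called, where 0.947% of all tested genes were called (0.241% higher and 0.707% lower in Hdc-GFPhi). DESeq2 and limma voom also called 0 of the 40. At an unadjusted p of 0.05, 5 of 40 members were higher and 0 lower (12.5%), against 5.33% higher and 5.56% lower, 10.9% in all, over all tested genes. These 5 were Racgap1, Cdc25c, Cdc20, Cdc25b and Prc1. Leaving out Hdc-GFPhi replicate 3 made this count 3, leaving out Hdc-GFPlo replicate 2 made it 2, and leaving out Hdc-GFPlo replicate 3 made it 8. The share of all tested genes at that p was not counted in these settings. Over the whole table, 14, 38 and 41 genes were called higher in them, in that order, against 32 in the main fit.

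The differences were small and their intervals narrow. Over the 40 members the log2 fold change, positive where Hdc-GFPhi was higher, ran from -0.27 for Pttg1 to 0.43 for Cdc25c, with a median of 0.13. The median over all tested genes was -0.00045. Of the members, 33 (82.5%) were above 0, against 49.9% of all tested genes. With Hdc-GFPlo replicate 2 left out, the members' median was 0.04 and 26 were above 0. With Hdc-GFPhi replicate 3 left out, it was 0.07 and 28 were above 0. With Hdc-GFPlo replicate 4 left out, it was 0.20. The 95% interval of all 40 members lay between -1 and 1, that is, within a 2-fold difference in either direction, against 80.5% of all tested genes. For 25 of the 40 (62.5%) it lay between -0.5 and 0.5, against 49.2%. All tested genes were not matched to the members for count level. The median SD within a fraction on the log2 scale was 0.248 for the members, not below the 0.234 over all tested genes. The interval of Espl1 passed 1 when either Hdc-GFPlo replicate 1 or 4 was left out.

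**Figure D1:**
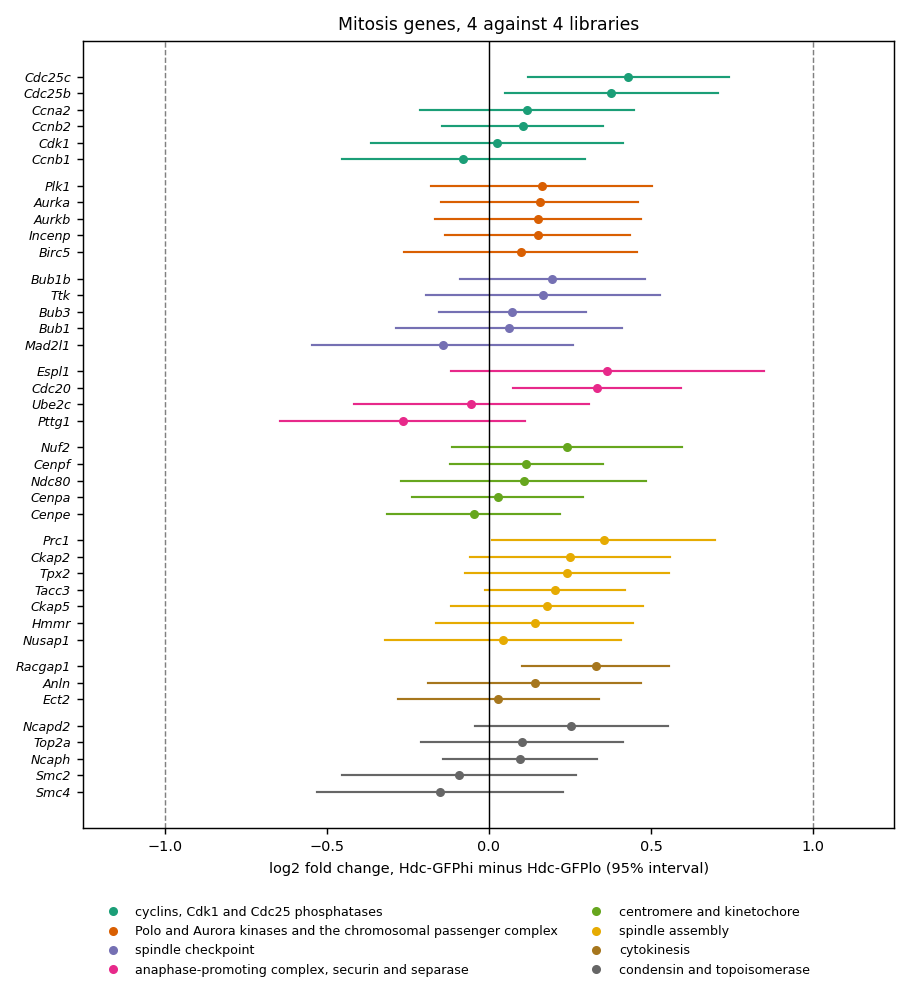
Log2 fold change of each of the 40 mitosis genes, Hdc-GFPhi minus Hdc-GFPlo, with its 95% interval from the edgeR fit (4 against 4 libraries), coloured by role; dashed lines mark a 2-fold difference. All intervals lie inside the dashed lines, and those of Cdc25c, Cdc25b, Cdc20, Prc1 and Racgap1 do not reach 0.

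Among the cyclins, Cdk1 and the Cdc25 phosphatases, the phosphatases stood furthest from 0. Cdc25c, which activates Cdk1 at mitotic entry, was at 27.9, 29.6, 33.1 and 31.9 CPM (counts scaled to a common library size, with TMM factors) in Hdc-GFPhi replicates 1 to 4 and at 22.5, 18.0, 24.1 and 26.2 CPM in Hdc-GFPlo. Every Hdc-GFPhi library was above every Hdc-GFPlo library, by 1.7 CPM or more. The log2 fold change was 0.43 ± 0.14 (SE, 95% interval 0.12 to 0.74, adjusted p = 0.239). Cdc25b, the isoform that acts first at the centrosomes, was at 92.3, 90.0, 98.7 and 86.0 CPM against 78.4, 58.5, 55.2 and 90.4 CPM. Hdc-GFPlo replicate 4 reached into the Hdc-GFPhi range, and the log2 fold change was 0.38 ± 0.15 (0.05 to 0.71, adjusted p = 0.366).

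The mitotic cyclins and Cdk1 itself were nearly level between the fractions. Ccnb1, cyclin B1, the main partner of Cdk1 in mitosis, was at 49.8, 49.5, 82.7 and 57.4 CPM in Hdc-GFPhi and 67.2, 51.1, 61.7 and 72.8 CPM in Hdc-GFPlo. The highest of the 8 values was in Hdc-GFPhi replicate 3 and the others of that fraction were among the lower ones, with a log2 fold change of -0.08 ± 0.17 (-0.45 to 0.30). Over the 20 alternatives it ran from -0.27 to 0.0007 and changed sign in 2. Cdk1 averaged 137 ± 21.1 against 135 ± 34.8 CPM (SD, n = 4 each), with a log2 fold change of 0.02 (-0.36 to 0.41). Ccnb2, the Golgi-associated cyclin B2, had 0.10 (-0.15 to 0.35), and Ccna2, cyclin A2 of S phase and G2, had 0.12 (-0.21 to 0.45). Per kilobase of transcript, Ccnb2 was at 85.2 CPM per kb over all 8 libraries and Ccnb1 at 24.7.

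The Polo and Aurora kinases and the chromosomal passenger complex, which corrects attachments of chromosomes to the spindle, all had log2 fold changes between 0.10 and 0.16, with none called. Incenp, the scaffold of the complex, was at 135, 124, 143 and 139 CPM in Hdc-GFPhi and 141, 97.9, 106 and 143 CPM in Hdc-GFPlo. The Hdc-GFPlo libraries were split, with replicates 2 and 3 below all Hdc-GFPhi libraries and replicates 1 and 4 near the top of them (log2 fold change 0.15 ± 0.13, adjusted p = 0.777). With Hdc-GFPlo replicate 2 left out it was 0.058, and with replicate 4 of that fraction left out it was 0.23. Aurka, the spindle pole kinase, was at 63.8, 61.6, 82.2 and 71.4 against 67.1, 48.6, 65.2 and 69.4 CPM (0.16 ± 0.14, adjusted p = 0.782). Its log2 fold change was 0.053 with Hdc-GFPlo replicate 2 left out and 0.074 with Hdc-GFPhi replicate 3 left out. Plk1, the Polo kinase of mitotic entry, had 0.16, Aurkb, the kinase of the passenger complex, 0.15, and Birc5 (survivin) 0.10.

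In the spindle checkpoint, log2 fold changes ran from -0.14 to 0.20. Bub1b, which encodes BubR1, a part of the inhibitor of the anaphase-promoting complex, was at 250, 198, 246 and 205 CPM in Hdc-GFPhi and 209, 184, 158 and 234 CPM in Hdc-GFPlo, overlapping (0.20 ± 0.13, adjusted p = 0.680, and 0.12 with Hdc-GFPlo replicate 3 left out). Ttk, the kinase that recruits the checkpoint proteins, was at 42.1, 53.5, 65.0 and 46.3 against 49.7, 34.2, 47.5 and 52.9 CPM (0.17 ± 0.17, adjusted p = 0.813). Leaving out Hdc-GFPhi replicate 3 gave 0.044, leaving out Hdc-GFPlo replicate 2 gave 0.047 and leaving out Hdc-GFPhi replicate 1 gave 0.25. Mad2l1, which encodes Mad2, was at 65.2, 67.9, 103 and 81.3 against 79.5, 66.0, 118 and 87.3 CPM, highest in Hdc-GFPlo replicate 3. Its log2 fold change was -0.14 ± 0.19 and turned to 0.048 without that library. It was -0.29 and -0.26 with Hdc-GFPhi replicate 3 or Hdc-GFPlo replicate 2 left out, and -0.061 and -0.078 with Hdc-GFPhi replicate 1 or 2 left out.

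Genes of the anaphase-promoting complex and its targets ran from -0.27 for Pttg1, the lowest of the 40, to 0.37 for Espl1. Cdc20, the activator of the complex in mitosis, was at 112, 118, 130 and 124 CPM in Hdc-GFPhi and 95.3, 84.3, 86.6 and 118 CPM in Hdc-GFPlo. Only Hdc-GFPlo replicate 4 reached the Hdc-GFPhi values, and the log2 fold change was 0.33 ± 0.12 (0.07 to 0.59, adjusted p = 0.286). Espl1, separase, the protease that releases sister chromatids, was at 108, 87.0, 104 and 69.4 against 89.5, 59.0, 43.8 and 93.8 CPM. It varied most of the 40 members, 2.48-fold from the lowest to the highest library, and had the widest interval (0.37, -0.12 to 0.85, adjusted p = 0.626). Leaving out Hdc-GFPlo replicate 3 gave 0.21. Pttg1, securin, which holds separase inactive, was at 25.2, 20.9, 22.3 and 27.2 CPM in Hdc-GFPhi and 23.0, 27.7, 39.0 and 25.3 CPM in Hdc-GFPlo. The value of 39.0 CPM in Hdc-GFPlo replicate 3 stood above the other 7. The log2 fold change of Pttg1 was -0.27 ± 0.17 (adjusted p = 0.665) and -0.07 without that library. Ube2c, the ubiquitin-conjugating enzyme of the complex, had -0.05.

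**Figure D2:**
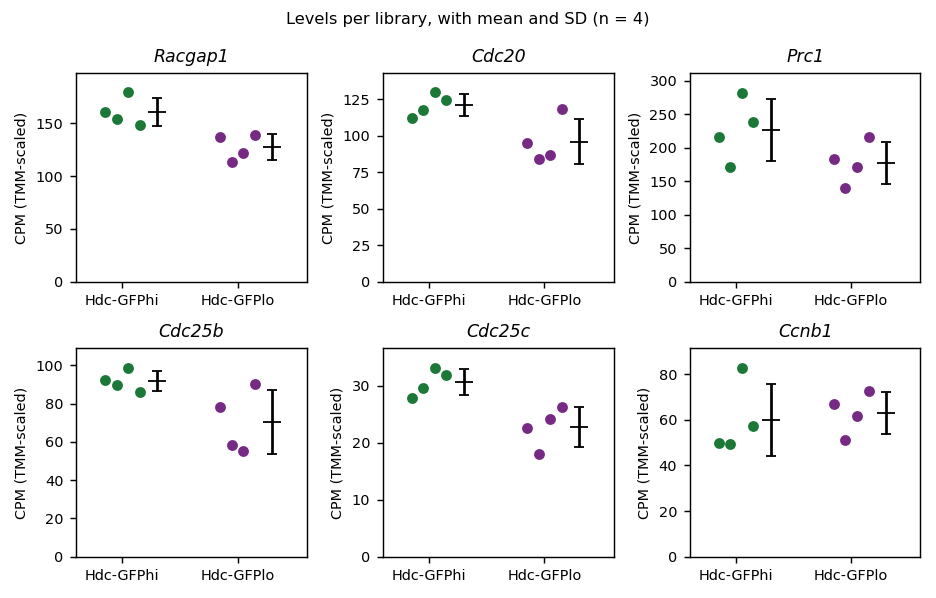
TMM-scaled CPM of Racgap1, Cdc20, Prc1, Cdc25b, Cdc25c and Ccnb1 in each library (points, replicates 1 to 4 from left to right), with the mean and SD of each fraction (n = 4) beside the points. The fractions do not overlap for Racgap1 and Cdc25c and overlap for the other 4 genes.

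Centromere and kinetochore genes had log2 fold changes from -0.05 to 0.24. Nuf2, a subunit of the Ndc80 complex that grips microtubules, was at 61.1, 51.6, 66.0 and 62.5 CPM in Hdc-GFPhi and 50.9, 38.2, 68.5 and 46.6 CPM in Hdc-GFPlo. Hdc-GFPlo replicate 3 held the highest value and the other 3 of its fraction the lowest ones (0.24 ± 0.16, adjusted p = 0.687). Its log2 fold change was 0.43 with that library left out and 0.12 with Hdc-GFPlo replicate 2 left out. Its partner Ndc80 had 0.11. Cenpf, a kinetochore protein of G2 and mitosis, was at 143, 128, 170 and 138 against 141, 122, 131 and 141 CPM (0.12 ± 0.11, adjusted p = 0.796), and 0.034 or 0.074 with Hdc-GFPhi replicate 3 or Hdc-GFPlo replicate 2 left out. Cenpa, the histone H3 variant that marks centromeres, had 0.03 and the motor Cenpe -0.05.

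In the main fit all 7 spindle assembly genes and all 3 cytokinesis genes were above 0, against 49.9% of all tested genes. Nusap1 changed sign in 3 and Ect2 in 4 of the 20 alternatives. Only in Racgap1 of these 10 genes did the fractions not overlap. Racgap1, a subunit of centralspindlin that positions the cleavage furrow, was at 161, 154, 179 and 148 CPM in Hdc-GFPhi and 137, 113, 122 and 139 CPM in Hdc-GFPlo. It had the smallest p of the 40 members (log2 fold change 0.33 ± 0.10, 0.10 to 0.56, adjusted p = 0.216), and over the 20 alternatives the adjusted p ran from 0.0820 to 0.391. Non-overlap with Hdc-GFPhi higher was seen for these 2 of 40 members, Racgap1 and Cdc25c, against 3.38% of all tested genes, and non-overlap with Hdc-GFPhi lower for 0 members, against 3.54%. Prc1, which bundles the microtubules of the midzone, was at 215, 171, 281 and 239 against 183, 140, 171 and 215 CPM. The fractions overlapped, and the log2 fold change was 0.35 ± 0.16 (0.01 to 0.70, adjusted p = 0.437).

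Other genes of the spindle and of cytokinesis were closer together. Tacc3, which stabilises spindle microtubules, was at 190, 175, 200 and 162 against 164, 142, 161 and 164 CPM, with Hdc-GFPhi replicate 4 inside the Hdc-GFPlo range (0.20 ± 0.10, adjusted p = 0.507). Anln, anillin of the contractile ring, was at 58.0, 49.9, 68.2 and 57.1 against 50.4, 43.2, 49.6 and 68.1 CPM (0.14 ± 0.15, adjusted p = 0.828). The value was 0.056 with Hdc-GFPlo replicate 2 left out, 0.064 with Hdc-GFPhi replicate 3 left out and 0.29 with Hdc-GFPlo replicate 4 left out. Ckap2, Tpx2, Ckap5, Hmmr and Nusap1, all microtubule-associated, had log2 fold changes of 0.25, 0.24, 0.18, 0.14 and 0.04, and Ect2, a gene of cytokinesis, 0.03.

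In the main fit the condensin subunits, which compact chromosomes, did not share a direction, and the interval of each included 0. Ncapd2 was at 441, 411, 447 and 388 CPM in Hdc-GFPhi and 414, 333, 259 and 408 CPM in Hdc-GFPlo (0.25 ± 0.14, adjusted p = 0.561). Smc4, an ATPase of the ring, was at 230, 281, 357 and 366 against 321, 277, 460 and 312 CPM (-0.15 ± 0.17, adjusted p = 0.841). Hdc-GFPlo replicate 3 was the lowest library for Ncapd2 and the highest for Smc4, and without it the log2 fold changes were 0.15 for Ncapd2 and 0.038 for Smc4. That of Smc4 was -0.035 without Hdc-GFPhi replicate 1 and -0.24 without either Hdc-GFPhi replicate 4 or Hdc-GFPlo replicate 2. Ncaph, which closes the ring, was at 83.5, 70.4, 79.4 and 84.7 against 78.1, 66.0, 74.2 and 79.3 CPM and varied least of the 40 (1.28-fold from lowest to highest, log2 fold change 0.10 ± 0.11, adjusted p = 0.840). It was 0.15 with Hdc-GFPhi replicate 2 left out and 0.042 with Hdc-GFPlo replicate 2 left out. Smc2, the other ATPase, had -0.09 and changed sign in 2 of the 20 alternatives, with 0.09 as its highest value. Top2a, the topoisomerase that untangles sister chromatids, had the highest level per length (152 CPM per kb) and averaged 824 ± 135 against 768 ± 135 CPM (SD, n = 4 each), with a log2 fold change of 0.10 (-0.21 to 0.41).

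The members' summed level varied more between libraries of a fraction than between the fractions. It was 5718, 5213, 6792 and 5932 CPM in Hdc-GFPhi replicates 1 to 4 and 5665, 4493, 5605 and 5988 CPM in Hdc-GFPlo, which averages 5914 ± 659 against 5438 ± 652 CPM (SD, n = 4 each). Hdc-GFPhi replicate 3 was highest and Hdc-GFPlo replicate 2 lowest, with the other 6 libraries between 5213 and 5988 CPM. Hdc-GFPhi replicate 3 was the highest library for 24 of the 40 members, against 9.89% of all tested genes, and 37 of 40 lay above the mean of the other 3 libraries of the fraction. Hdc-GFPlo replicate 2 was the lowest library for 28 of 40, against 10.4% of all tested genes, and 39 of 40 lay below the mean of the other 3. In Hdc-GFPhi replicate 2, too, 39 of 40 members lay below the mean of the other 3. Hdc-GFPlo replicate 2 had the smallest total count (16726179). The median SD within a fraction on the log2 scale was 0.248 for the members and 0.234 over all tested genes.

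**Figure D3:**
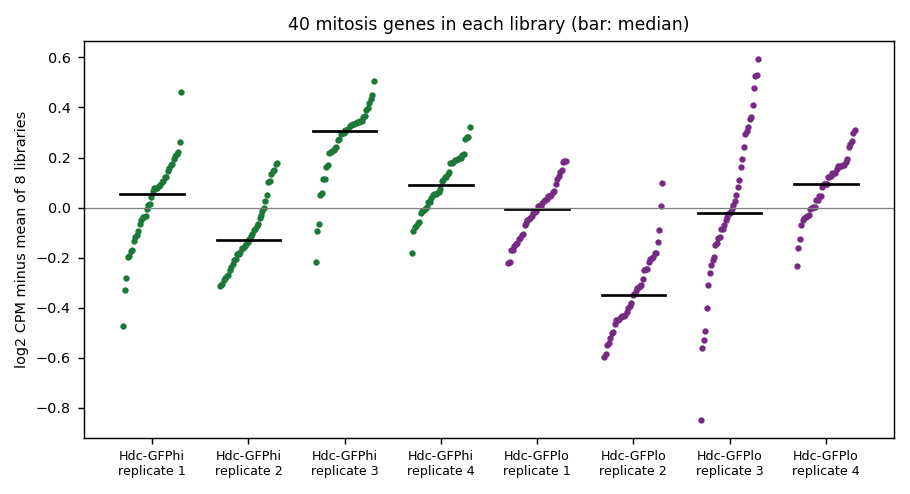
Log2 CPM of each of the 40 mitosis genes in each library, minus that gene's mean over the 8 libraries (points, sorted within a library), with the median as a bar. The median is highest in Hdc-GFPhi replicate 3 (0.30) and lowest in Hdc-GFPlo replicate 2 (-0.35), and the points spread most widely in Hdc-GFPlo replicate 3.

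In Hdc-GFPlo replicate 3 the members differed on median by the base composition of their transcripts. The 10 members of lowest GC content (39.7% to 42.7%, among them Smc4, Smc2, Mad2l1 and Nuf2) had a median of 0.43 on the log2 scale above the mean of the other 3 Hdc-GFPlo libraries. The 10 of highest GC content (51.4% to 56.1%, among them Espl1, Ncapd2, Cdc25b and Plk1) had a median of -0.16. Of these, Ube2c, Aurkb, Aurka and Tacc3 went the other way, at 0.36, 0.13, 0.10 and 0.04, and of the low GC genes Ect2 did, at -0.17. Across the 40 genes, Pearson's r of this deviation with GC content was 0.43, 0.07, -0.51 and 0.49 in Hdc-GFPlo replicates 1 to 4. In Hdc-GFPhi replicates 1 to 4, against the other 3 of that fraction, it was 0.55, 0.21, -0.35 and -0.34, so such a relation was not particular to 1 library. Over the 11438 tested genes with a known GC content, r was 0.08, 0.12, -0.17 and 0.01 in Hdc-GFPlo replicates 1 to 4. In Hdc-GFPhi replicates 1 to 4 it was 0.26, 0.12, -0.30 and -0.10 over those genes. These are descriptions over genes of the same libraries, and the deviations within a fraction share libraries. Hdc-GFPlo replicate 3 held the highest value of 23.4% and the lowest value of 23.3% of all tested genes. After each library's trend on GC content and on length was taken out, 0 of 40 members were called, the median was 0.17 and 8 were higher at an unadjusted p of 0.05. Over the whole table, 92 genes were then called higher, against 32 in the main fit. The part of base composition in the differences of single members was not tested further.

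**Figure D4:**
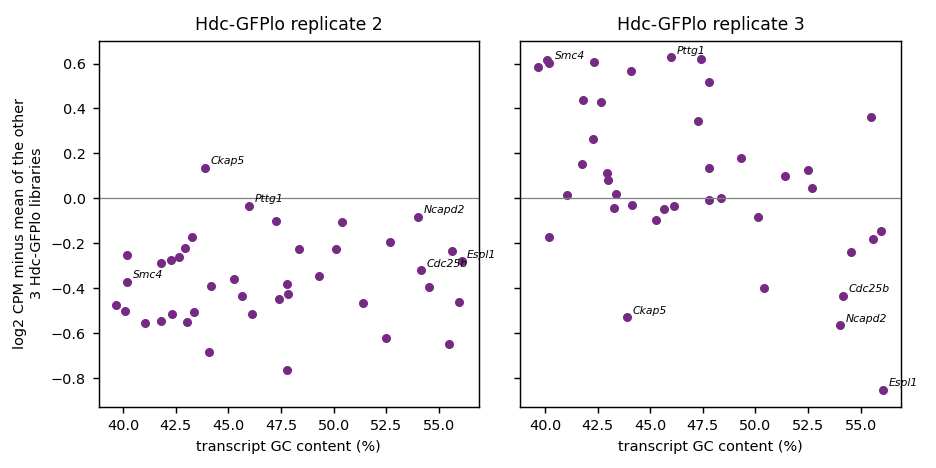
Log2 CPM of the 40 mitosis genes in Hdc-GFPlo replicate 2 (left) and replicate 3 (right), minus the mean of the other 3 Hdc-GFPlo libraries, against the GC content of the gene's longest protein-coding transcript. In replicate 2 all genes but Ckap5 lie below 0. In replicate 3 most genes of low GC content, such as Smc4, lie above 0, and Espl1, Ncapd2 and Cdc25b of high GC content lie below. Ube2c, of high GC content, lies above 0 and Ect2, of low GC content, below.

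None of the other listed genes of division and of DNA synthesis was called. Over all tested genes 0.947% were called, so lists of this size would hold few or no calls, and 49.9% were above 0. Of 88 further mitosis genes in the table, 0 were called, 62 were above 0, the median log2 fold change was 0.08, and the smallest p were those of the centrosome gene Cdk5rap2 (0.41 ± 0.13, adjusted p = 0.200) and of Psrc1 (0.32 ± 0.12, adjusted p = 0.319). Of 13 mitotic kinesins, 0 were called and 11 were above 0 (median 0.14), with Kif2c at 0.38 ± 0.14 (adjusted p = 0.296) and Kif4 at 0.32 ± 0.12 (adjusted p = 0.299). Of 46 DNA replication genes, 0 were called and 29 were above 0 (median 0.04). Rrm2, a subunit of ribonucleotide reductase, had -0.43 ± 0.15 (adjusted p = 0.254) and the G1/S cyclin gene Ccne1 -0.47 ± 0.17 (adjusted p = 0.283). Of 21 regulators of mitotic transcription (DREAM, MuvB, E2F and NF-Y subunits, Foxm1 and Mybl2), 0 were called and 8 were above 0 (median -0.01). The repressor E2f7 had 0.52 ± 0.19 (adjusted p = 0.283) and the NF-Y subunit Nfyb -0.34 ± 0.14 (adjusted p = 0.374). At an unadjusted p of 0.05, 6 of the further mitosis genes were higher and 0 lower, and 3 kinesins were higher and 0 lower. At the same p, 1 replication gene was higher and 2 were lower, and 1 regulator was higher and 1 lower. In either direction these were 6.82%, 23.1%, 6.52% and 9.52% of the lists in that order. Over all tested genes the share was 10.9% (5.33% higher and 5.56% lower). Members whose listed promoter window held both motifs had a median log2 fold change of 0.16 (23 genes), those with 1 of the 2 had 0.03 (4 genes), those with neither 0.10 (7 genes) and those with no listed window 0.15 (6 genes). Their ranges overlapped, in that order -0.09 to 0.38, -0.08 to 0.14, -0.27 to 0.24 and -0.15 to 0.43. A difference between these groups was not tested.

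**Figure D5:**
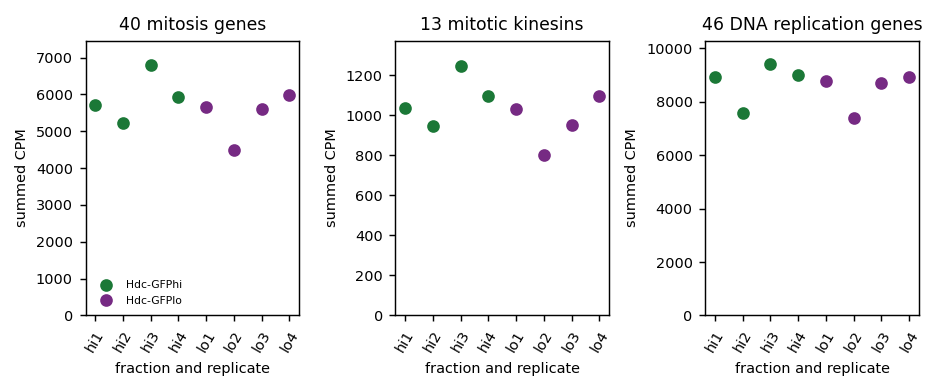
Summed TMM-scaled CPM per library of the 40 mitosis genes, 13 mitotic kinesins and 46 DNA replication genes, with hi and lo for Hdc-GFPhi and Hdc-GFPlo and the replicate number. In all 3 panels replicate 3 of Hdc-GFPhi is highest and replicate 2 of Hdc-GFPlo lowest.

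The genes that define the LSK fraction were present in both fractions, with Kit at 1460 against 1195 CPM and Ly6a (Sca-1) at 125 against 119 on average. Cd34, listed with the LSK markers but not part of that definition, averaged 1184 against 1316 CPM. None of the 6 LSK markers was called. The other 3 stood furthest from 0, with Flt3, a receptor of multipotent progenitors, averaging 876 against 1236 (-0.50 ± 0.12 on the log2 scale, adjusted p = 0.0965), and the stem cell markers Procr at 58.5 against 36.4 (0.69 ± 0.18, adjusted p = 0.111) and Slamf1 at 18.0 against 10.3 (0.80 ± 0.24, adjusted p = 0.185). Of 6 B cell markers, 3 (Vpreb1, Cd79a and Igll1) were called lower in Hdc-GFPhi, and the summed level of the 6 was 92.6 to 170 CPM against 267 to 501 CPM. Among T and NK cell markers, Cd8a had 0 counts in all libraries, Cd3e 0 and 7 counts over the fractions, Cd3g 5 and 14, Cd3d 26 and 13 and Ncr1 4 and 13, while Nkg7 was at 160 against 176 CPM. The 6 neutrophil markers (0 called) summed to 1068 to 1879 CPM against 1462 to 2344 CPM, the 6 erythroid markers to 66.2 to 265 against 68.7 to 238 (Hba-a1 with 0 counts in all libraries), the 6 mast cell and basophil markers to 9.61 to 22.1 against 6.41 to 34.0, and the 4 plasma cell markers to 242 to 296 against 268 to 480. The single mast cell and basophil markers did not share a direction. Cpa3 and Mcpt8 had log2 fold changes of -0.24 and -0.32, with neither called. Ms4a2 had 118 against 6 counts, mostly from Hdc-GFPhi replicates 3 and 4. Cma1 had 84 against 1 counts, mostly from Hdc-GFPhi replicate 3. Gzmb had 12 against 5 counts and Fcer1a 21 against 19. Ms4a2, Cma1, Gzmb and Fcer1a did not pass the filter on low counts and were not tested. The plasma cell sum was mostly Xbp1, at 245 against 251 CPM on average. Igj, of the same 4, had 43 against 7971 counts (adjusted p = 0.119 in the edgeR test). It was at 0.80 CPM in Hdc-GFPlo replicate 1 and at 95.3, 183 and 154 CPM in replicates 2 to 4. Sdc1 averaged 21.2 against 31.7 CPM and Prdm1 3.56 against 3.45. The part of these cells, and of the mix of stem cells and progenitors, in the levels of the mitosis genes was not tested.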

How the data were processed

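Sorted LSK cells of mouse bone marrow were sequenced as 4 Hdc-GFPhi and 4 Hdc-GFPlo libraries. The authors deposited raw read counts per gene symbol. The build was mm9 and the tools were bcl2fastq 1.8.4, Bowtie2, TopHat2 2.04 and HTSeq 0.6.1, per the submitters' processing notes. The sources used here do not give the annotation, the strand setting or the treatment of multi-mapping reads, so reads of overlapping, antisense or near-identical genes cannot be told apart. Per the labels' protocols, a SMARTer kit amplified the cDNA and Nextera XT turned it into libraries, without stated molecular identifiers, so intervals do not cover amplification error.

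Genes were filtered with filterByExpr (13300 of 23284 kept), scaled by TMM and tested with edgeR 4.0.16 (R 4.3.3) glmQLFit with robust estimation and glmQLFTest on all 8 libraries, with Benjamini-Hochberg adjustment over all tested genes. SE and 95% intervals come from that fit. Log2 CPM used a prior count of 2. Since the labels do not tie replicates to separate animals, p-values cover only the spread among these 8 samples, and that spread may be technical. Pairs of libraries within a fraction had a chi-square per degree of freedom of at least 13.8. In simulated libraries of this comparison (13145 genes tested), the test recovered 12.0% of genes given a log2 change of 0.5 and 76.0% of genes given one of 1. Of the intervals of unchanged genes, 95.3% held 0. The simulated counts were drawn gene by gene from the fitted dispersions, so they held no shift shared by many genes of 1 library. Genes given a change were drawn at random and not matched to the members for count level. Transcript length and GC content are those of the longest GENCODE M21 protein-coding transcript of the symbol (11438 of the tested genes, all 40 members); longest transcripts may not be those expressed. Promoter windows are RefSeq's on GRCm38.p6, not mm9, taking the first listed per symbol.

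The members and lists were chosen with earlier results of these data known. Named genes are members called, the 2 of smallest p in each of 8 roles, the 3 largest and 3 smallest fold changes and the 2 of smallest p in other lists; other members appear by their fold change, and Ccnb1, Cdk1 and Top2a in detail, chosen after their values were seen. Of the further mitosis list, 11 symbols were not in the table. Alternatives were other size factors (DESeq2 1.42.0, upper quartile, none), other filters, the DESeq2 Wald test, voom with quality weights (limma 3.58.1), a fit without robust estimation, a replicate block, leaving out each library and, added after seeing the data, removal of a trend on GC content and length, leaving out 2 libraries together, and a covariate that sets replicates 1 and 2 apart from 3 and 4.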

Additional observations from a re-analysis of the deposited data

Results flagged for a closer look

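Among 82 groups of 4 libraries examined (40 members and their sum in each fraction), 4 held 1 library that stood apart by Dixon's test, where chance flags about 1 in 20. Bub1, a checkpoint kinase, was at 127 CPM in Hdc-GFPhi replicate 3 and 88.1 to 90.2 CPM in the other 3. Cenpe was at 144 CPM in Hdc-GFPhi replicate 4 and 105 to 111 CPM in the others. Cenpa was at 97.0 CPM in Hdc-GFPlo replicate 3 and 74.4 to 78.1 CPM in the others. Tacc3 was at 142 CPM in Hdc-GFPlo replicate 2 and 161 to 164 CPM in the others.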

How the results depend on the processing

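Over 20 alternatives, 0 members were called in either direction. The members' median log2 fold change stayed between 0.04 and 0.20, a range set by leaving out 1 library, and 26 to 37 members were above 0. Of the 40, 25 were above 0 in all 20 alternatives and Pttg1 below 0 in all, while 14 changed sign in at least 1. Members higher at an unadjusted p of 0.05 numbered 2 to 8 with 1 library left out, 8 after removal of the GC and length trend, and 8 when Hdc-GFPlo replicate 3 and Hdc-GFPhi replicate 4 were left out at once. The share of all tested genes at that p was not counted in these settings. With 1 library left out, the log2 fold change ran from -0.242 to 0.0381 for Smc4 and from -0.290 to 0.0477 for Mad2l1, positive for both when Hdc-GFPlo replicate 3 was the one left out. With the 2 libraries left out at once, that of Mad2l1 was 0.0348.

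Over all genes, 32 were called higher and 94 lower. These were 163 and 241 with DESeq2, 100 and 176 with voom, 92 and 146 after removal of the GC and length trend, and 84 and 191 with replicates 1 and 2 set apart from 3 and 4 by a covariate. With 1 library left out they were 8 to 41 and 44 to 105. With the replicate block, 84 genes were called higher, against 32, and 0 members. Same-numbered libraries correlated at 0.26, 0.35, 0.08 and 0.10 in their deviations from the group means, so the numbers were not taken to pair the samples. Across the fractions, libraries numbered 1 and 2 correlated at 0.06 to 0.35 and those numbered 3 and 4 at 0.08 to 0.32. Between these sets all correlations were negative, from -0.26 to -0.06. The main test held no term for this split, whose source was not tested. With the covariate for it, 0 members were called and their median log2 fold change was 0.13. Changes of 0.5 on the log2 scale are mostly below what the test recovers with 4 against 4 libraries. The other causes were not tested.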
